A study of Mus musculus with 4 samples.

Results

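The genes described here are the cytochrome P450 genes of families 1 to 4 in mouse hepatocytes in primary culture. Members were all probes other than controls whose gene name on the array is Cyp, a digit from 1 to 4, a lower-case subfamily and a number. This gave 70 genes with 93 probes, of 35080 genes and named features with 55681 probes on the array. Of the 70 genes, 61 were measured, meaning that the scanner software called a probe well above background on the 2 DMSO arrays, on the 2 GW3965 arrays, or on all 4. Of the other 9, 6 were not well above background on any array and 3 (Cyp2b9, Cyp2ab1 and Cyp4f40) on 1 or 2. The same filter left 24637 genes and named features in all. The 61 comprised 3 genes of family 1, 39 of family 2, 6 of family 3 and 13 of family 4. The gene printed on the array as Cyp2c44 carries a RefSeq accession now named Cyp2c23 and is called Cyp2c23 below.

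The mice were of a strain given as bl6, and their hepatocytes were grown in medium with 10% fetal bovine serum. All 4 samples then spent a night at 0.5% serum with 5 µM simvastatin, an inhibitor of cholesterol synthesis, and 100 µM mevalonic acid, the product of the step that simvastatin blocks. During that night 2 samples (a and b) received 1 µM GW3965, an agonist of the liver X receptors (LXR), and 2 samples (a and b) received the solvent DMSO. Neither group was without simvastatin and mevalonic acid, so each difference below is that of the agonist on top of them. The labels give no age or sex, and do not say whether a and b came from separate mice or cultures. The spread behind each p-value is thus that between these samples alone, and it may be technical.

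Cytochrome P450 enzymes are heme proteins, most of which sit in the endoplasmic reticulum of hepatocytes, where they oxidise drugs, steroids, fatty acids and other lipids with electrons from the reductase Por. Families 1 to 3 are best known for foreign compounds, and family 4 for hydroxylating fatty acids and eicosanoids at the end of the chain. Ligand-activated factors set many of their levels: AHR for family 1, CAR (Nr1i3) and PXR (Nr1i2) for Cyp2b, Cyp2c and Cyp3a genes, and PPARA for Cyp4a genes. LXR, the target of GW3965, is known above all for cholesterol efflux and fatty acid synthesis genes.

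Many P450 genes are tandem duplicates, and each array probe is a single strand of 60 bases, so the identity of the probes bears on every value. Of the 93 member probes, 81 list RefSeq transcripts of 1 gene, 9 list those of several genes, and 3 list none. Among pairs aligned over all 60 bases, the most alike lies in the Cyp4a cluster of chromosome 4. It is shown here with capitals at the bases where the probes differ, 6 of 60, with 54 identical. A Cyp2c67 probe and a Cyp2c68 probe, offset by 1 base and not shown, are closer still, with 55 of 59 bases identical. The Cyp4a10 probe maps to chr4:115198463-115198522 and the Cyp4a31 probe to chr4:115243923-115243982, both on the plus strand of mm9.
Cyp4a10: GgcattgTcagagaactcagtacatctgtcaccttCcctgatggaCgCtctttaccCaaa
Cyp4a31: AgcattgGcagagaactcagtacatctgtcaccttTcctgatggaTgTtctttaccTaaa
The Cyp4a10 probe of this pair also lists Cyp4a32, and another Cyp4a31 probe also lists Cyp4a10, so signals of these genes cannot be fully told apart. The levels given below for Cyp4a10 and Cyp4a31 come from brighter probes than this pair, each listing 1 gene. Even so, that Cyp4a31 probe matches a further Cyp4a10 probe at 44 of 47 overlapping bases (93.6%).

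The next probes are shown because each lists several genes outright. The first serves Cyp2a4 and Cyp2a5, a gene with no probe of its own among the members, and spans chr7:27098659-27099724 on the plus strand of mm9, interrupted by genomic sequence. The other serves Cyp3a11, Cyp3a41a, Cyp3a41b and Cyp3a44 and spans chr5:146672058-146673925 on the minus strand.
Cyp2a4: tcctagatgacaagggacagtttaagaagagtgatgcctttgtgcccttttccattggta
Cyp3a11: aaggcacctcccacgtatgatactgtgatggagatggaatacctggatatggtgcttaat
Values given for Cyp2a4 come from its other probe. That probe also lists both genes, so the values are the sum of what Cyp2a4 and Cyp2a5 transcripts contribute. The Cyp3a11 values below come from another probe, which lists Cyp3a11 alone.

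By contrast, the probe of Cyp2e1 at chr7:147956922-147956981 (plus strand) lists 1 gene. It is shown as 1 of 2 probes of the ethanol-oxidising P450, and the levels given below come from the other.
Cyp2e1: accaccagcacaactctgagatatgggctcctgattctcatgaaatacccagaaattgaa

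Levels are log2 spot intensities minus the array's 75th percentile, so 0 is the 75th percentile of that array. Each probe has its own hybridisation efficiency, and levels are compared between arrays only, not between genes. From 62.5% to 69.1% of all probes were well above background on an array, and 0 spots were saturated. Member probes well above background numbered 80 on DMSO a, 81 on DMSO b, 80 on GW3965 a and 84 on GW3965 b. The agonist check used Abca1, the cholesterol efflux pump and a standard LXR target. Abca1 read 1.46 and 0.55 with DMSO and 3.31 and 3.85 with GW3965, which is 5.96-fold higher. Srebf1, the LXR target that drives fatty acid synthesis, was 2.37-fold higher. Neither passed limma's test after Benjamini-Hochberg adjustment over all genes (adjusted p = 1.00 for each), with unadjusted p of 0.0014 and 0.0018.

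GW3965 against DMSO asks whether LXR activation altered the P450 repertoire of these cells. No member passed the test: 0 of 61 had an adjusted p under 0.05 by limma, as did 0 of all 24637 genes (0%). At an unadjusted p under 0.05 the members again numbered 0 of 61, where the share over all genes was 0.824%. Differences were small, with 44 of 61 members (72.1%) within 0.1 of 0 on the log2 scale, against 50.5% of all genes. The median difference was -0.02 over the members and -0.01 over all genes, and the extremes were -0.18 for Cyp2c54 and 0.48 for Cyp2g1. No member changed by 1.5-fold or more (0 of 61), compared with 2.2% of all genes. Of the 61, 26 read higher and 35 lower with GW3965, a split that became 25 to 36 after quantile normalization and 17 to 44 with arrays centred on their medians. For 4 members the treated arrays were both higher than either control array: Cyp1a2, Cyp2g1, Cyp2w1 and Cyp4f18. The share over all genes was 9.41%. Both were lower for 0 members, where the share over all genes was 6.55%. Centring on medians left Cyp1a2 and Cyp2g1 alone among the 4.

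The intervals given here come from the fit on treatment alone, which counts the spread between arrays a and b of a group as error. The 95% intervals of all 61 members included 0, and their half-width ran from 0.48 to 3.004 with a median of 0.87 on the log2 scale. For 36 members the whole interval lay within a 2-fold change in either direction, and for 5 within 1.5-fold. For the other 25, a change of 2-fold or more in at least 1 direction lies inside the interval. A p that misses the threshold therefore does not show that the agonist left these genes alone. A fit that takes the letter into account gives narrower intervals. With 2 arrays in each group, the smallest two-sided p of an exact permutation test is 0.33. Leaving out 1 array set the member median at 0.18 without DMSO a, -0.29 without DMSO b, -0.21 without GW3965 a and 0.17 without GW3965 b. Members whose groups did not overlap then numbered 33 of 62 measured, 37 of 61, 34 of 64 and 29 of 61 in that order. In each case a single array was set against 2. The shares over all genes in the same 4 cases were 56.9%, 56.7%, 62.5% and 57.4%. The genes called over the whole array numbered 66 without DMSO b and 30 without GW3965 b, with no member among those called in any of the 4 cases.

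**Figure D1:**
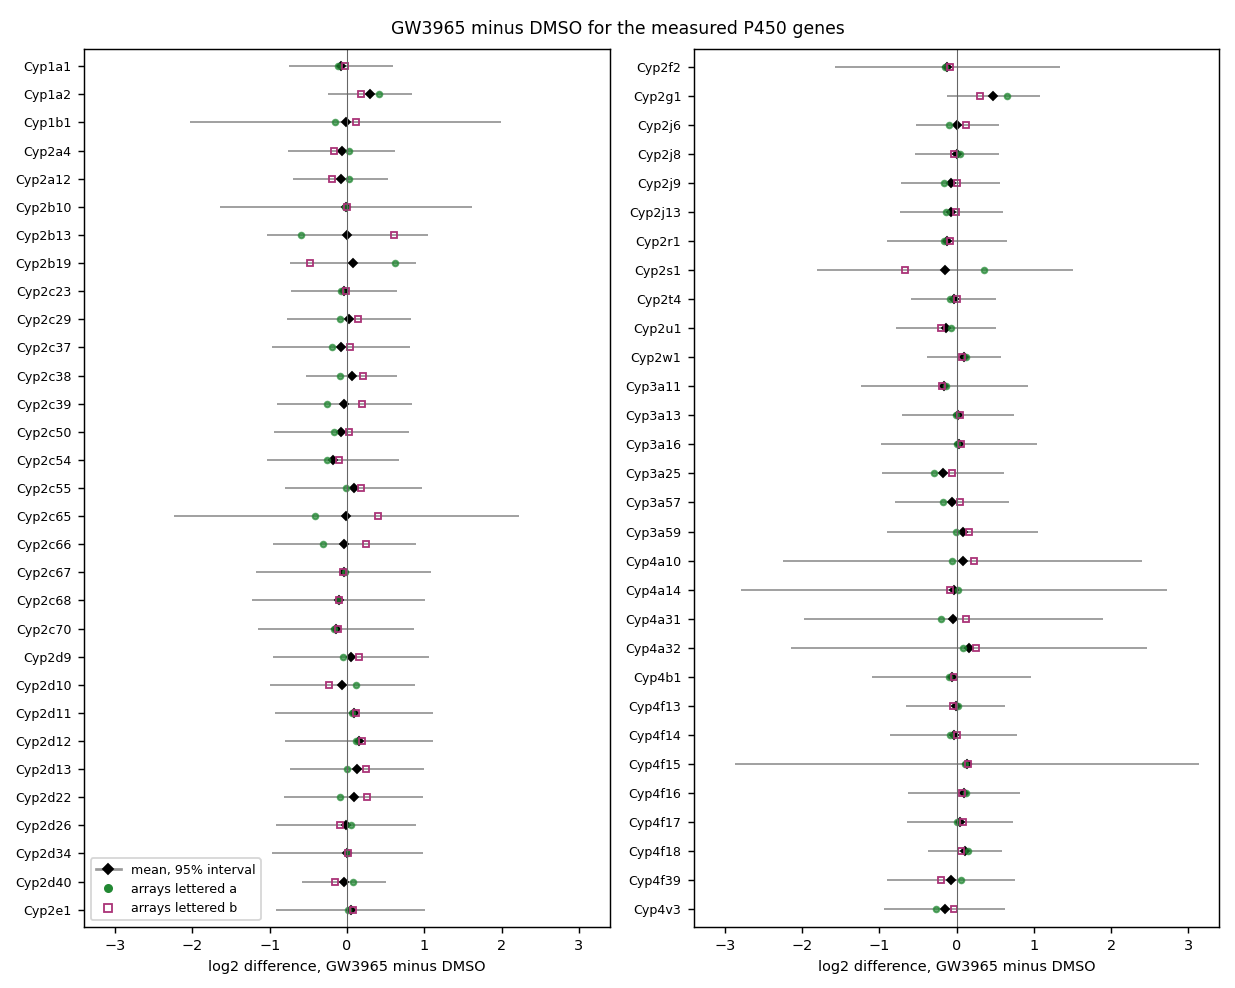
Difference of GW3965 minus DMSO (log2, horizontal axis) for each of the 61 measured genes: black diamonds are means over 2 arrays a group with limma's 95% interval, green circles the difference between the arrays lettered a, purple squares that between the arrays lettered b. Every interval covers 0, and the means run from -0.18 to 0.48.

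Family 1 holds the AHR targets. Cyp1a2, the constitutive hepatic P450 that demethylates caffeine, read 1.74 and 2.06 with DMSO and 2.16 and 2.24 with GW3965. Both treated arrays were above both controls, by 0.30 ± 0.21 (SE, n = 2 arrays a group), which is 1.23-fold, with an unadjusted limma p of 0.21 and an adjusted p of 1.00. The difference stayed between 0.14 and 0.46 when any 1 array was left out. Cyp1a1, the inducible oxidase of polycyclic aromatic hydrocarbons, read -3.32 and -3.77 with DMSO and -3.44 and -3.80 with GW3965, so its groups overlapped. Cyp1b1, which hydroxylates oestrogens and is mostly expressed outside the liver, read -4.90 and -3.42 with DMSO and -5.06 and -3.30 with GW3965. Its arrays split by letter, with both b arrays higher, and not by treatment.

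Within family 2, the 3 measured Cyp2b genes, of a subfamily known for its response to phenobarbital, differed between treatments by -0.01 to 0.07. Cyp2b10, the standard CAR target, read 0.22 and 1.51 with DMSO and 0.20 and 1.503 with GW3965, a difference of -0.01 ± 0.62 (SE). Cyp2b13 read -4.72 and -4.83 against -5.31 and -4.22, and Cyp2b19 read -5.57 and -4.96 against -4.95 and -5.44, so that neither gene separated by treatment or by letter. Cyp2b19 was not well above background on DMSO a. Cyp2b23 was not well above background on any array, and Cyp2b9 only on the b array of each group. Of the Cyp2a genes, Cyp2a4 (with Cyp2a5) read 6.98 and 7.48 with DMSO and 7.01 and 7.31 with GW3965. Cyp2a12 read 3.57 and 3.37 against 3.60 and 3.18. Neither separated by treatment, and Cyp2a22 was not measured.

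The 13 Cyp2c genes, many of them epoxygenases of arachidonic acid, formed the largest subfamily, with 3 higher and 10 lower with GW3965 and a median difference of -0.04. Cyp2c29, which CAR activators induce, read 4.35 and 3.71 with DMSO and 4.26 and 3.85 with GW3965. Cyp2c37 read 3.55 and 2.82 with DMSO and 3.36 and 2.85 with GW3965. Cyp2c70, the enzyme that makes muricholic acids in mice, read 2.79 and 2.02 with DMSO and 2.62 and 1.90 with GW3965, a difference of -0.14 ± 0.39 (SE). In each of these 3 genes the a arrays were the higher ones in both groups, and the treatments overlapped. Cyp2c54 had the lowest difference of any member, with 4.65 and 3.99 against 4.39 and 3.89, or -0.18 ± 0.33 (SE, limma adjusted p = 1.00). Cyp2c38 (3.51 and 3.11 against 3.42 and 3.32), Cyp2c39 (2.56 and 1.77 against 2.30 and 1.96) and Cyp2c50 (4.71 and 4.01 against 4.54 and 4.04) overlapped in the same way. So did Cyp2c23, an epoxygenase best known in kidney, with 3.21 and 2.77 against 3.14 and 2.76. Cyp2c55 (-2.40 and -1.87 against -2.41 and -1.69), Cyp2c65 (-5.26 and -3.91 against -5.69 and -3.51) and Cyp2c66 (-2.96 and -2.64 against -3.27 and -2.39) differed from the rest in that the b arrays were the higher ones. The Cyp2c66 probe also lists Cyp2c65, and Cyp2c65 was not well above background on GW3965 a. The probe of Cyp2c67 also lists Cyp2c68 and Cyp2c40, and that of Cyp2c68 also lists Cyp2c40 and Cyp2c69, so the values of this pair are shared.

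The 9 Cyp2d genes, relatives of the human debrisoquine hydroxylase, had a median difference of 0.05, with 6 higher and 3 lower with GW3965, and none separated by treatment. Cyp2d26 read 6.71 and 6.14 with DMSO and 6.76 and 6.06 with GW3965. Cyp2d9, a male-biased steroid hydroxylase, read 3.44 and 2.60 against 3.38 and 2.76. Cyp2d10 read 5.53 and 5.06 against 5.65 and 4.82, and Cyp2d22 read 1.92 and 1.13 against 1.83 and 1.39. The highest difference of the subfamily was 0.15 ± 0.36 (SE) for Cyp2d12 (4.02 and 3.30 against 4.14 and 3.49). All 9 genes read lower on the b array of both groups.

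Among the single-gene subfamilies of family 2, Cyp2e1, which oxidises ethanol and activates acetaminophen, read 7.44 and 6.72 with DMSO and 7.46 and 6.79 with GW3965. Cyp2f2, which activates naphthalene, read 5.03 and 3.85 against 4.88 and 3.76. Cyp2r1, the hepatic vitamin D hydroxylase, read 2.28 and 1.73 against 2.11 and 1.65. All 3 overlapped between treatments and read higher on the a arrays. Cyp2g1, a gene of the olfactory mucosa, had the highest difference of any member, with -5.04 and -4.62 against -4.38 and -4.32, or 0.48 ± 0.23 (SE). That is 1.39-fold, with an unadjusted limma p of 0.094 and an adjusted p of 1.00; its probe was well above background on all 4 arrays. Cyp2w1, a gene of fetal gut, separated by 0.10 ± 0.18 (SE; -4.23 and -4.14 against -4.11 and -4.06), less than its SE. Cyp2s1, expressed mainly in epithelia, read -4.37 and -2.64 against -4.01 and -3.30, and Cyp2t4 read -2.74 and -2.54 against -2.82 and -2.54. Of the arachidonic acid epoxygenases of the Cyp2j group, 4 of 6 were measured, with differences from -0.08 to 0.01. Cyp2j6 read 2.03 and 1.75 against 1.94 and 1.86, and Cyp2j9 read -2.82 and -3.25 against -2.98 and -3.25. The probe used for Cyp2j13 also lists Cyp2j12. Cyp2j5, Cyp2j11 and Cyp2ab1 were not measured.

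Cyp3a genes encode the main drug-oxidising P450s and respond to PXR. Cyp3a11, the standard PXR target in mouse liver, read 5.36 and 4.58 with DMSO and 5.23 and 4.40 with GW3965, a difference of -0.16 ± 0.41 (SE). Cyp3a25 read 1.51 and 0.88 against 1.22 and 0.83, and Cyp3a59 read 2.74 and 1.95 against 2.74 and 2.12. In these 3 genes, as in Cyp3a16 and Cyp3a57, both a arrays were above both b arrays. Cyp3a13 went the other way on its brighter probe, with 3.88 and 4.31 with DMSO and 3.88 and 4.35 with GW3965, while its other probe was lower on b. Over the 6 measured genes the treatment differences ran from -0.17 to 0.08, with 3 higher and 3 lower. Cyp3a44 was not measured by its own probe.

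In family 4, the Cyp4a fatty acid hydroxylases, which PPARA induces, gave nearly the same values in both treatments and very different ones by letter. Cyp4a14 read 0.40 and -1.81 with DMSO and 0.41 and -1.89 with GW3965. Cyp4a10 read 1.79 and -0.24 with DMSO and 1.73 and -0.01 with GW3965. Cyp4a31 read 1.41 and -0.31 with DMSO and 1.20 and -0.19 with GW3965, and Cyp4a32 read -0.06 and -2.01 with DMSO and 0.02 and -1.77 with GW3965. The treatment differences of the 4 genes lay between -0.04 and 0.16, while the a arrays were 2.93 to 4.77-fold above the b arrays. All 3 probes of Cyp4a10 and all 3 of Cyp4a31 showed that order, with mean log2 differences of array b minus array a between -1.88 and -1.26.

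The Cyp4f genes, several of which inactivate leukotrienes, had 7 of 8 members measured. Cyp4f15 showed the widest split by letter of all members, reading -0.84 and -3.33 with DMSO but -0.73 and -3.17 with GW3965. Cyp4f13 (2.25 and 1.92 against 2.27 and 1.87) and Cyp4f14 (2.67 and 2.07 against 2.58 and 2.07) also read lower on the b arrays. Cyp4f18, a leukotriene hydroxylase of neutrophils, separated by 0.10 ± 0.18 (SE; -0.44 and -0.46 against -0.29 and -0.41), less than its SE. The other Cyp4f18 probe overlapped between treatments. Cyp4f39, a skin lipid hydroxylase, read -4.73 and -4.05 against -4.68 and -4.26. Cyp4b1 read 2.76 and 3.49 with DMSO and 2.66 and 3.46 with GW3965, with the b arrays higher. Cyp4v3 read 3.24 and 2.62 against 2.97 and 2.58. Cyp4f40 and Cyp4x1 were not measured.

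**Figure D2:**
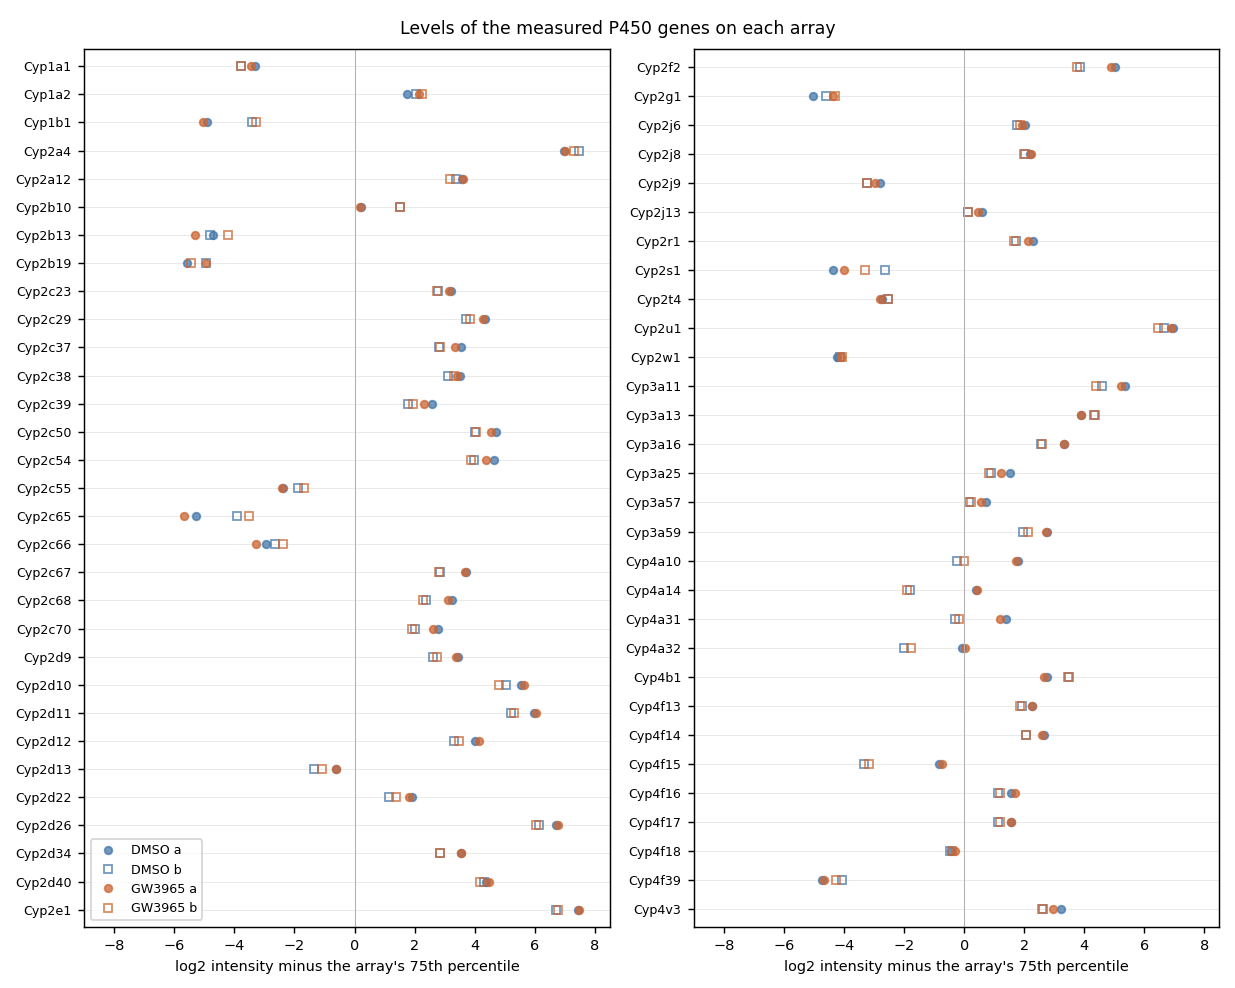
Level of each of the 61 measured genes on the 4 arrays, as log2 intensity minus the array's 75th percentile (horizontal axis); blue marks DMSO, orange GW3965, filled circles arrays a and open squares arrays b. Marks of 1 letter lie close together in most rows, and for 44 genes both squares lie left of both circles.

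The order by letter was common to most members. Both b arrays read lower than both a arrays for 44 of 61 (72.1%), where the share over all genes was 28%. Both b arrays read higher for 11 (18%), where the share over all genes was 38.4%, and 6 overlapped. The split was 45 lower and 11 higher after quantile normalization, and 46 and 11 with arrays centred on their medians. The median of array b minus array a was -0.46 for the members and 0.06 for all genes on the log2 scale. Within a treatment group, arrays a and b differed by a median of 0.59 in size for the members and 0.29 for all genes. Between treatments, arrays of 1 letter differed by a median of 0.11 for the members and 0.14 for all genes. The letter difference exceeded the treatment difference for 56 of 61 members (91.8%) and for 75.8% of all genes. The labels do not say what the letters stand for, and on the slide both a arrays come before both b arrays, at positions 1 and 2 against 3 and 4. Slide position and sample origin cannot be told apart, and the letter difference was not tested.

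By subfamily, b was below a for all 4 Cyp4a genes (median -1.88), all 9 Cyp2d genes (-0.65), all 4 Cyp2j genes (-0.28), 5 of 6 Cyp3a genes (-0.61), 10 of 13 Cyp2c genes (-0.57) and 5 of 7 Cyp4f genes (-0.41). The mean difference reached 2-fold or more for 10 members, 16.4% against 5.74% of all genes. The 6 of these that were lower on b were the 4 Cyp4a genes, Cyp4f15 (-2.46) and Cyp2f2 (-1.15). The 4 that were higher on b were Cyp2c65 (1.77), Cyp1b1 (1.62), Cyp2b10 (1.30) and Cyp2s1 (1.22). All but Cyp2b10 gave low signals on the a arrays of DMSO and GW3965: Cyp2c65 -5.3 and -5.7, Cyp1b1 -4.9 and -5.1, Cyp2s1 -4.4 and -4.0. Cyp2c65 was not well above background on GW3965 a. The other 7 members higher on both b arrays were Cyp4b1 (0.76), Cyp2c55 (0.62), Cyp2c66 (0.60), Cyp4f39 (0.55), Cyp3a13 (0.45), Cyp2a4 (0.40) and Cyp2t4 (0.24). Genes of the same chromosome could lie on opposite sides: Cyp2b10 and Cyp2f2 are both on chromosome 7, and Cyp2c65 and Cyp2c67 both on chromosome 19. The 13 measured genes of chromosome 19 are all Cyp2c genes, and their b minus a differences ran from -0.85 to 1.77. The 9 of chromosome 15 are all Cyp2d genes, and theirs ran only from -0.75 to -0.19.

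**Figure D3:**
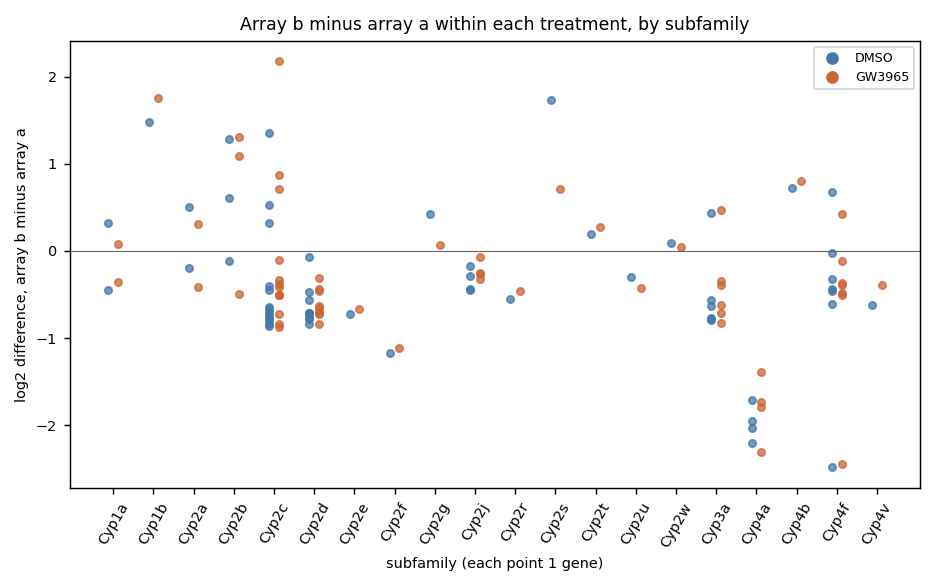
Array b minus array a (log2, vertical axis) for each measured gene, by subfamily, within DMSO (blue) and within GW3965 (orange). Cyp4a genes lie between -2.30 and -1.39 in both treatments, Cyp2d genes all below 0, and Cyp1b1, Cyp2b10, Cyp2s1 and Cyp4b1 above 0.

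Markers of liver cell types moved with the letter too. All 14 measured hepatocyte markers read lower on both b arrays, with a median of -1.02, among them Ahsg (-2.61), Fgb (-2.39) and Alb (-0.31). Their summed level, in units of the array's 75th percentile, was 3844 and 4034 on the a arrays and 2631 and 2188 on the b arrays of DMSO and GW3965. All 8 macrophage and leukocyte markers were lower on b, with sums of 100.2 and 110.4 on a and 50.8 and 57.4 on b. Of 6 endothelial markers 4 were higher on b, with sums of 32.2 and 34.0 on a and 39.1 and 42.3 on b. Of 6 measured stellate cell and fibroblast markers 4 were higher on b, with Dcn lower. Dcn gave the most to their sums, which were 78.2 and 83.3 on a and 52.4 and 51.9 on b. Of 4 measured cholangiocyte markers, Krt19 (2.53) and Epcam were higher on b, Sox9 (-0.50) was lower and Spp1 overlapped. On 1 GW3965 array Epcam did not clear the background. The sums, to which Spp1 gave the most, were 62.5 and 57.2 on a and 76.0 and 63.8 on b. Serpina1b, Lrat and Krt7 were not measured. In bulk RNA, fewer cells of a type and less RNA per cell cannot be told apart, and the part of cell composition in the letter difference was not tested. Between treatments none of these markers reached an unadjusted limma p under 0.05, against 0.824% of all genes.

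Transcription factors of P450 genes and a few proteins that regulate such factors (Keap1 and Tiparp among them) were followed as a list of 24, of which 22 were measured and 0 had an unadjusted limma p under 0.05 for treatment. Their median treatment difference was -0.07, with 7 higher and 15 lower. Nr1h3, the LXR form typical of liver, read 3.60 and 2.76 with DMSO and 3.69 and 2.67 with GW3965. By letter, 13 were lower and 4 higher on b. Ahr, the receptor for family 1 inducers, read 3.04 and 0.88 with DMSO and 2.79 and 0.99 with GW3965, so the a arrays stood far above the b arrays. Nr1i2 (PXR; -1.65), Hnf4a (-1.49) and Nr1i3 (CAR; -1.01) were also lower on b. Ppara read 0.34 and 0.10 with DMSO and 0.34 and 0.08 with GW3965, a b minus a difference of -0.25, while its Cyp4a targets differed by -2.25 to -1.55.

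Members grouped by inducer had median treatment differences of -0.02 for the 3 AHR targets, 0.00 for the 6 CAR or PXR targets and 0.02 for the 4 PPARA targets. The 6 CAR or PXR targets were evenly split by letter: Cyp2b10, Cyp2c55 and Cyp3a13 were higher on b and Cyp2c29, Cyp2c37 and Cyp3a11 lower. For Cyp3a13 this holds for its brighter probe only, since its other probe was lower on b (-0.42). Of genes with a known sex bias in mouse liver, the 5 measured female-biased members had a median treatment difference of -0.03 and the 3 male-biased members 0.05. By letter the 3 male-biased members, Cyp2d9, Cyp2d11 and Cyp2f2, were all lower on b. Of the female-biased members, Cyp2a4 was higher on b, Cyp2c39, Cyp3a16 and Cyp4a14 were lower, and Cyp2b13 overlapped.

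Electron donors and other partners of P450 enzymes, with genes of heme synthesis and breakdown, were a list of 14, all measured. None had an unadjusted limma p under 0.05 for treatment, and the median difference was -0.03. Por, the reductase, read 6.45 and 6.18 with DMSO and 6.41 and 6.17 with GW3965. Alas1, the rate-limiting enzyme of heme synthesis in liver, read 5.57 and 5.28 against 5.45 and 5.20. Hmox1, which degrades heme, read 5.51 and 5.70 against 5.91 and 6.01, above both controls on both treated arrays, by 0.36 ± 0.19 (SE; limma adjusted p = 1.00). Urod, an enzyme of heme synthesis, separated the other way, reading 4.95 and 4.82 against 4.80 and 4.57. These were the only 2 of the 14 genes whose groups did not overlap, 1 in each direction, where the shares over all genes were 9.41% above and 6.55% below. Cyb5a (6.91 and 6.44 against 6.73 and 6.23) had the most negative b minus a difference, -0.49. The median b minus a difference of the list was -0.21, compared with -0.46 for the members.

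P450 genes outside the name pattern gave a further comparison. Of 12 listed, 10 were measured, Cyp7a1 and Cyp8b1 of bile acid synthesis being not measured, and 0 had an unadjusted limma p under 0.05 for treatment. Cyp26a1, which clears retinoic acid, had the widest treatment difference, -0.52 ± 0.77 (SE; 2.60 and 1.02 against 2.12 and 0.45). Cyp51, of cholesterol synthesis, read 1.40 and 0.80 against 1.35 and 1.03. By letter 5 were lower and 4 higher on b, with a median of -0.14. Cyp4a12a (-0.95), Cyp4a12b (-0.89) and Cyp3a41b (-0.79), whose names end in a letter and fall outside the pattern, were lower on b like the other Cyp4a and most other Cyp3a genes.

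**Figure D4:**
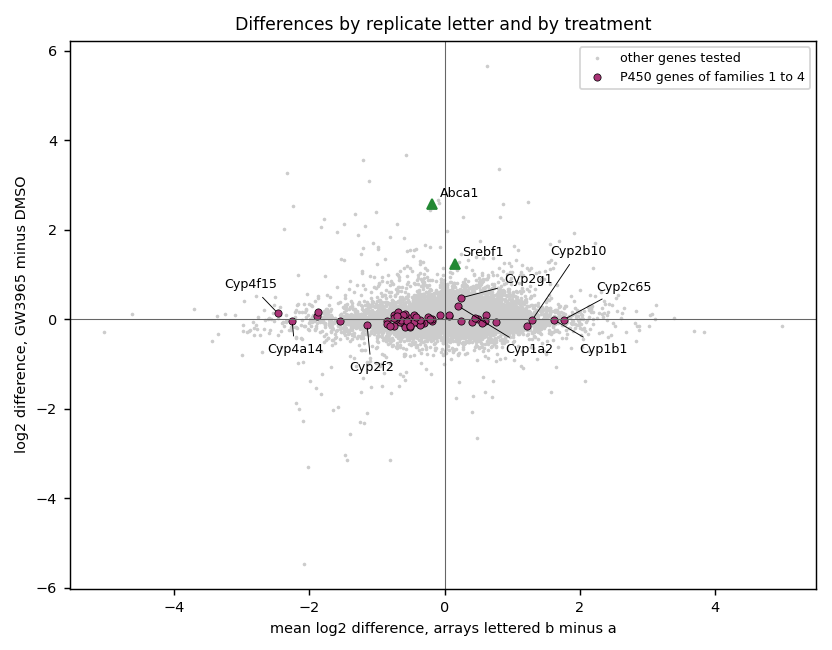
Mean difference of arrays b minus a (log2, horizontal axis) against GW3965 minus DMSO (log2, vertical axis) for the 61 P450 genes (purple) and all other genes tested (grey), with Abca1 and Srebf1 (green triangles). P450 genes spread from -2.46 to 1.77 horizontally and from -0.18 to 0.48 vertically.

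Several probes reported on 16 of the measured members, and on their own 0 of 81 member probes had an unadjusted limma p under 0.05, the smallest being 0.096. For 14 of the 16 genes the treatment differences of the probes lay within 0.3 of each other. Cyp2u1, a fatty acid hydroxylase, was 1 of the 2 exceptions. Its brightest probe, designed on a cDNA clone, read 6.96 and 6.66 with DMSO and 6.89 and 6.46 with GW3965. This clone probe stands for Cyp2u1 in all counts of genes, yet it lists no RefSeq transcript. The Cyp2u1 probe on the RefSeq transcript read -4.60 and -5.32 against -3.60 and -4.98 and was not well above background on DMSO b. Whether the clone probe reports the Cyp2u1 transcript was not tested. The treatment differences were -0.14 for the clone probe and 0.67 for the RefSeq probe. Cyp4f18 was the other exception, with 0.10 for the clone probe and 0.47 for the RefSeq probe (-0.64 and -0.93 against 0.22 and -0.84), whose groups overlapped. The clone probe of Cyp4f18 also stands for the gene and lists no RefSeq transcript. It maps to chr8:74512382-74512441 (minus strand of mm9), almost the same bases as the RefSeq probe at chr8:74512381-74512440. All probes of a gene gave the same letter order for 13 of the 16 genes, and the same sign of the mean b minus a difference for 15. In Cyp2u1 and Cyp4f18, 1 probe each overlapped by letter while the others were lower on b. In Cyp3a13 the probe that starts at base 1644 of the transcript was higher on b by 0.45, while the probe at base 2791 was lower by a mean difference of -0.42.

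RefSeq promoters (GRCm38.p6, 250 bases before to 50 after the start) were available for 57 of the 70 genes and were searched on both strands. The LXR element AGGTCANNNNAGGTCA was found in 0 of 57, against 0.0148% of 27025 genes with a promoter. Only exact letters were counted, and just 4 of the 27025 had them. The 0 among 57 therefore cannot show that LXR elements are absent, and variants of the element were not searched. The repeat unit of the element, AGGTCA, was in 17 (29.8%), against 18.1% of all. The AHR core GCGTG was in 13 (22.8%), Cyp1a1 and Cyp1b1 included, against 35.2%. The C/EBP letters TTGCNNAA were in 12 (21.1%), against 12.2%. CAAAGTCCA, the core bound by HNF4A, was in 6 (10.5%), against 0.555% of all genes, and those 6 were 4 Cyp2c and 2 Cyp3a genes. These windows of 41 bases are shown for the motif they share, in capitals, at 56 to 125 bases before the start. Their positions are chr5:145469798-145469838 and chr5:145879939-145879979 (Cyp3a16 and Cyp3a11, minus strand), chr19:39060874-39060914 (Cyp2c65, plus strand), and chr19:39649143-39649183, chr19:39741154-39741194 and chr19:40187326-40187366 (Cyp2c67, Cyp2c68 and Cyp2c70, minus strand).
Cyp3a16: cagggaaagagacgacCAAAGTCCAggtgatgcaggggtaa
Cyp3a11: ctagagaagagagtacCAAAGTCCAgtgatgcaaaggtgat
Cyp2c65: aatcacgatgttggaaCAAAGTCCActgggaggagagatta
Cyp2c67: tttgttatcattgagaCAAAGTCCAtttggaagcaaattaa
Cyp2c68: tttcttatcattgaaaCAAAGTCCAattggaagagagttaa
Cyp2c70: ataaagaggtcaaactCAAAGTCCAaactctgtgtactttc
Of these 6 genes, 5 read lower on both b arrays (Cyp3a11 -0.80, Cyp3a16 -0.74, Cyp2c67 -0.85, Cyp2c68 -0.85 and Cyp2c70 -0.74), and Cyp2c65 read higher (1.77). Lower values on b were found for 72.1% of all measured members and 28% of all genes, and the values of Cyp2c67 and Cyp2c68 are shared. A match is a description of the sequence and shows no binding. Many members are tandem duplicates, so matches in related genes, such as Cyp2c67 and Cyp2c68, are not independent. The member shares of each motif can therefore count related promoters more than once, and enrichment was not tested. The motifs and the windows were picked with the values known.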

How the data were processed

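Total RNA of 4 samples was labelled with Cy3 and hybridised to 4 single-colour Agilent arrays (design 028005, 1 slide). Per the file headers, the deposited values are spot intensity from Agilent Feature Extraction 10.7.3.1, background-corrected on a linear scale and not scaled between arrays; version 11.5.1.11 is the one in the submitters' processing notes. The deposited value table held the same intensity (largest difference 0). Spots of a probe were averaged, outlier spots left out, log2 taken and each array's 75th percentile subtracted. The filter kept the 35479 probes that were well above background throughout 1 group or both, and the probe with the highest mean stood for a gene. Names came from RefSeq accessions for 26762 probes and from the files for 28919. Treatment was tested with limma 3.58.1 in R 4.3.3 (group only, two-sided, 2 residual and 2.72 prior degrees of freedom), adjusted by Benjamini-Hochberg over all genes at 0.05 and tested on simulated data. The simulation gave every gene the same noise SD of 0.1, unlike these arrays. It does not show how often real changes would pass here. Intervals are those of limma at 95%. The number of arrays limits the precision.

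Named by rule were 36 listed P450 genes where measured, the 5 largest differences in each direction and the extremes of each subfamily. Other members are named for their order by letter, chosen after their values were seen, or as accounted for. The members, lists and motifs were chosen with earlier results of these data known. Alternatives tried were centring on the median, quantile normalization, the deposited table, normexp (offset 50), signal above background required on all 4 arrays or on none, each probe alone, averaged probes, an intensity trend, a robust prior, the replicate letter as a block, and each array left out. Promoters are from RefSeq. Exon and UTR positions of probes were not analysed here, and a few items are not reported here. Figures were drawn with matplotlib 3.10.9 in Python.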

Additional observations from a re-analysis of the deposited data

How the results depend on the processing

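With 2 arrays a group, 2 residual degrees of freedom and no block, even large differences did not pass, such as the 5.96-fold of Abca1. No member had an adjusted limma p under 0.05 under any alternative, and the count of all genes called stayed at 0 except with the replicate block (15) and with an array left out (0 to 66). The count of members at an unadjusted p under 0.05 was 0 in every fit but that with the replicate block, where it was 1 (Cyp2g1, limma adjusted p = 0.76), against 5.41% of all genes. The letters share only a name in the labels: the b minus a differences of the 2 groups correlated at r = 0.72 over all genes and 0.92 over the 61 members, and genes are not independent replicates. The paired fit changed no other call of a member. With it the SE of the members ran from 0.13 to 0.28 and the half-width of the 95% intervals from 0.31 to 0.70 (median 0.32), and 0 of 61 intervals, in place of 25, reached a 2-fold change. That fit treats the letters as pairs, which the labels do not state. Members whose groups did not overlap, 4 in the report, numbered 3 with quantile normalization, 2 with centring on the median, 2 with normexp and 6 with no filter, which added Cyp2ab1 (higher) and Cyp4x1 (lower), neither of which passes the filter. The cause of the other shifts was not tested. The number was 29 to 37 with an array left out, where a single array stood against 2. The median difference of the members ranged from -0.29 to 0.18 with an array left out and from -0.07 to -0.01 otherwise.

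Signs of uncalled differences turned for 3 of 44 named members with quantile normalization (Cyp2b13 -0.070, Cyp2b19 -0.042, Cyp2d26 0.012), for 5 with centring on the median (Cyp2b13 -0.045, Cyp2c29 -0.023, Cyp2e1 -0.0037, Cyp2j6 -0.040, Cyp3a13 -0.034), for 3 with normexp (Cyp1b1 0.0063, Cyp2b19 -0.055, Cyp4a10 -0.00087) and for 1 with the mean of probes (Cyp2u1 0.20). The cause was not tested. With an array left out, Cyp1a2 and Cyp2g1 kept their sign, and the ranges of the other 42 crossed 0: Cyp1a1 -0.30 to 0.14, Cyp1b1 -0.90 to 0.86, Cyp2a12 -0.29 to 0.12, Cyp2a4 -0.32 to 0.18, Cyp2b10 -0.67 to 0.64, Cyp2b13 -0.54 to 0.55, Cyp2b19 -0.23 to 0.38, Cyp2c23 -0.26 to 0.18, Cyp2c29 -0.29 to 0.35, Cyp2c37 -0.45 to 0.29, Cyp2c38 -0.14 to 0.26, Cyp2c39 -0.43 to 0.36, Cyp2c50 -0.43 to 0.28, Cyp2c54 -0.51 to 0.15, Cyp2c55 -0.27 to 0.44, Cyp2c70 -0.53 to 0.24, Cyp2d10 -0.48 to 0.36, Cyp2d12 -0.21 to 0.52, Cyp2d22 -0.31 to 0.48, Cyp2d26 -0.37 to 0.34, Cyp2d9 -0.37 to 0.47, Cyp2e1 -0.32 to 0.41, Cyp2f2 -0.71 to 0.47, Cyp2j6 -0.13 to 0.15, Cyp2j9 -0.30 to 0.14, Cyp2r1 -0.40 to 0.15, Cyp2s1 -1.02 to 0.71, Cyp2u1 -0.35 to 0.074, Cyp3a11 -0.57 to 0.25, Cyp3a13 -0.22 to 0.25, Cyp3a25 -0.49 to 0.14, Cyp3a59 -0.32 to 0.48, Cyp4a10 -0.93 to 1.09, Cyp4a14 -1.19 to 1.12, Cyp4a31 -0.90 to 0.81, Cyp4a32 -0.81 to 1.14, Cyp4b1 -0.46 to 0.33, Cyp4f13 -0.21 to 0.19, Cyp4f14 -0.34 to 0.26, Cyp4f15 -1.11 to 1.37, Cyp4f39 -0.41 to 0.27, Cyp4v3 -0.46 to 0.16.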
